A study of Arabidopsis thaliana with 12 samples.

Results

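The 10 genes described here belong to the cold response of Arabidopsis thaliana and were taken by locus identifier from a table of 32833 loci: ICE1 (AT3G26744), CBF2 (AT4G25470), KIN1 (AT5G15960), KIN2 (AT5G15970), RD29A (AT5G52310), RD29B (AT5G52300), GRP7 (AT2G21660), GRP8 (AT4G39260), RCI2A (AT3G05880) and RCI2B (AT3G05890). All 10 had a row in the table. RNA was measured by poly(A) RNA-seq in seeds of ecotype Col-0 in 4 groups of 3 libraries: atalkbh1a/1b mutant seeds stratified for 2 days in sterile water at 4 °C, atalkbh1a/1b mutant seeds kept dry, wild-type seeds stratified in the same way, and wild-type seeds kept dry. AtALKBH1A and AtALKBH1B are described by the study's title as demethylases of N6-methyladenine in DNA. Every library came from whole seeds, the alleles behind the mutant label were not given in the sources used here, and no group was wetted without cold, so cold, water uptake and time cannot be told apart. Nothing in the labels says whether the 3 libraries of a group came from separate seed lots, so the p-values measure the spread between these libraries only.

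In the classical cold pathway the bHLH transcription factor ICE1 activates the CBF genes, whose AP2-type products bind a short element called CRT/DRE in the promoters of cold-regulated genes such as KIN1, KIN2 and RD29A. Many of the same targets also answer to the hormone abscisic acid (ABA) through a separate element, the ABRE, and ABA is high in the maturing seed and falls as dormancy is lost. GRP7 and GRP8 are RNA-binding proteins under clock control whose transcripts accumulate in the cold, and RCI2A and RCI2B are very small hydrophobic membrane proteins.

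Levels are given in RPKM, a measure corrected for transcript length and library size that can be compared between genes, and sums of a few reads in RPM, which is corrected for library size only. The libraries held 17752862 to 22987789 reads in the denominator that the spacing of low RPKM values gives. Between 3.05% and 5.91% of these reads fell on nuclear ribosomal RNA loci in 8 libraries and between 10.8% and 29.3% in the other 4, which were mutant stratified libraries 1 and 3, mutant dry library 2 and wild-type stratified library 3. Wild-type stratified library 3 correlated with mutant stratified libraries 1, 2 and 3 at 0.993, 0.979 and 0.99, and with wild-type stratified libraries 1 and 2 at 0.964 and 0.952. These correlations were over log2 values of all loci, before any filter. Of 3 dioxygenase loci read as a check of the genotype label, AT5G01780 was at 0.178 to 0.499 RPKM in the 6 mutant libraries and at 4.22 to 6.69 RPKM in the 6 wild-type libraries, wild-type stratified library 3 included. AT1G11780, annotated as an AlkB dioxygenase, had 13.03, 12.66 and 5.86 RPKM in mutant stratified seeds, 5.59, 4.41 and 6.63 in mutant dry seeds, 12.94, 15.04 and 10.91 in wild-type stratified seeds and 4.49, 4.57 and 4.44 in wild-type dry seeds, while AT3G14140 had 0 to 4 reads in any library, and the files do not say which locus carries which of the study's gene names. Embryo storage genes were abundant in every library and the 3 seed coat markers together stayed between 0.174 and 3.28 RPKM.

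**Figure D1:**
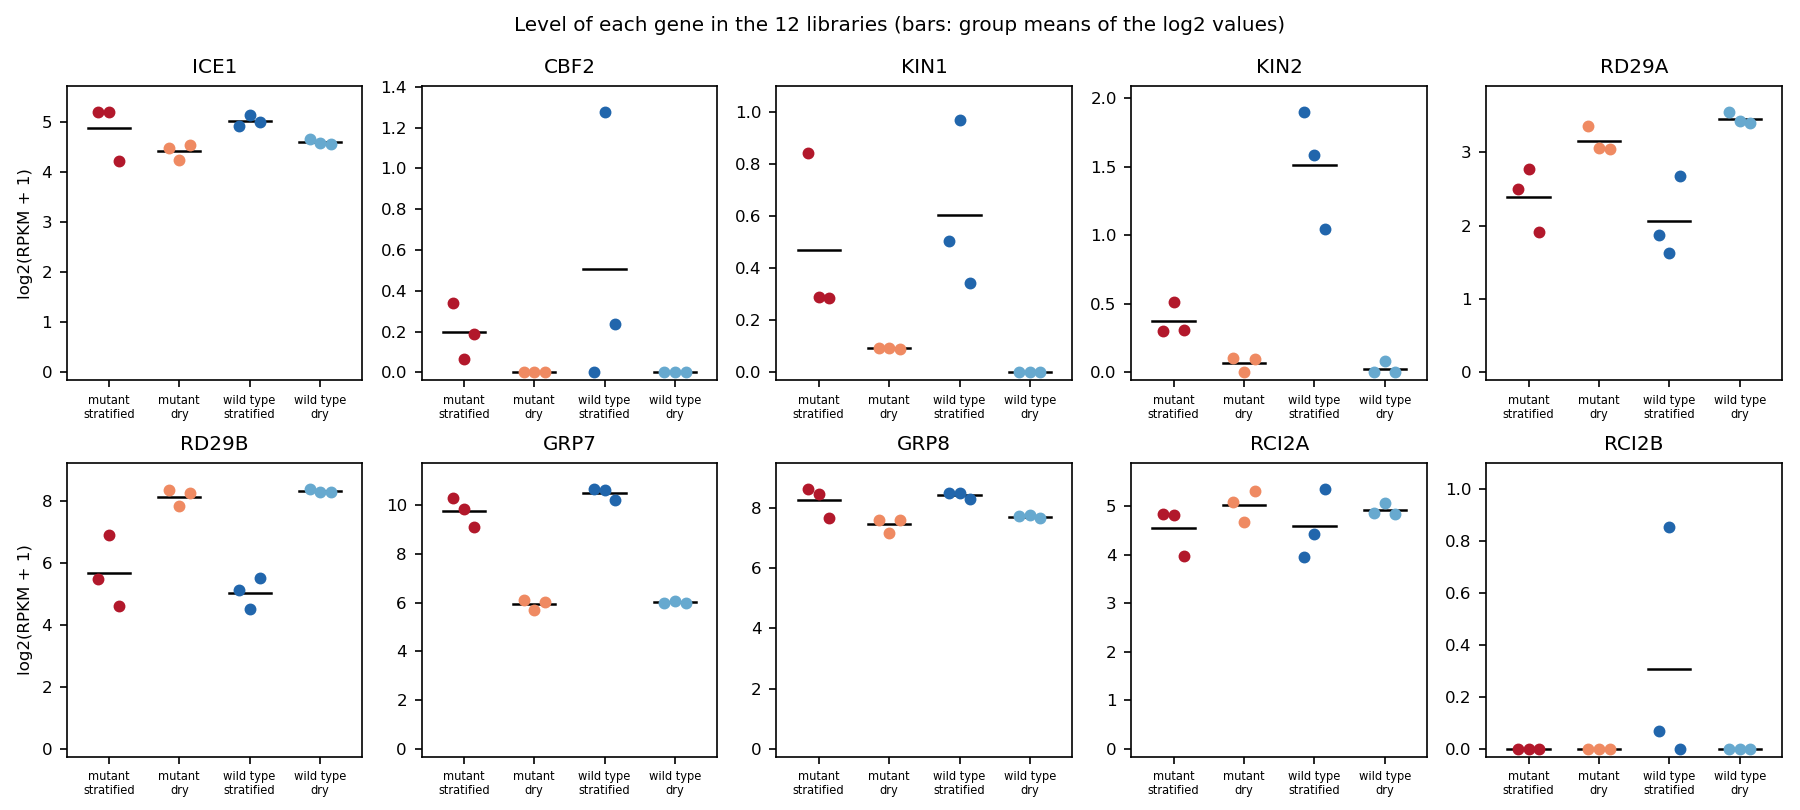
The level of each gene in the 12 libraries, as log2(RPKM + 1) on an axis that starts near 0 and differs between genes, with 1 point a library and a bar at the mean of the log2 values. The 6 stratified libraries of GRP7 lie above its 6 dry libraries, and those of RD29B lie below. CBF2, KIN1 and RCI2B are low, with highest values of 1.42, 0.958 and 0.804 RPKM, each in wild-type stratified library 2.

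Changes were tested with limma on log2(RPKM + 1), in the 15145 loci that reached 1 RPKM in 3 libraries or more, with Benjamini-Hochberg adjustment over those loci and a threshold of 0.05. The filter kept 7 of the 10 genes, and CBF2, KIN1 and RCI2B fell below it. KIN2 was kept only through its level in the 3 stratified wild-type libraries, so its values in comparisons with that group are a description. Stratification moved most of the transcriptome: 58.6% of tested loci were called in mutant seeds and 68.6% in wild-type seeds, with median log2 changes over all tested loci of 0.50 and 0.64. Of the 7 genes, 4 were called in mutant seeds, with GRP7 and GRP8 higher and RD29A and RD29B lower, and their median log2 change was 0.31. In wild-type seeds GRP7 was called higher and RD29A and RD29B lower, KIN2 was past the threshold too, and the median was 0.42. Over all tested loci the called share was 43.4% higher and 15.2% lower in mutant seeds, and 49.8% higher and 18.9% lower in wild-type seeds, so the number of these genes that was called lay near the background. Centring the libraries on their medians, trimmed-mean scaling or quantile normalization shifted the median log2 change of all loci by -0.45 to -0.65. Higher loci made up 74.0% of the calls in mutant seeds and 72.5% in wild-type seeds, and 48.1% to 51.4% under those scalings.

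GRP7 showed the highest rise among the 7 genes on the log2(RPKM + 1) scale. GRP7 and GRP8 encode glycine-rich proteins that bind RNA and influence its splicing, and GRP7 represses its own transcript and that of GRP8 in an autoregulatory loop. GRP7 lies on chromosome 2 (9265084 to 9266557, minus strand) and GRP8 on chromosome 4 (18273829 to 18275216, minus strand), each with 2 exon blocks in the TAIR10.1 annotation. Stratified mutant seeds had 1256, 909 and 551 RPKM of GRP7, against 67.4, 51.4 and 63.8 RPKM in dry mutant seeds. Stratified wild-type seeds had 1637, 1570 and 1198 RPKM, against 62.4, 65.3 and 62.2 RPKM in dry wild-type seeds. Stratified and dry libraries did not overlap in either genotype, which held for 60.0% of tested loci in mutant seeds and 79.0% in wild-type seeds. The rise was 3.80 ± 0.34 on the log2(RPKM + 1) scale in mutant seeds (limma estimate ± SE, adjusted p = 1.3e-07) and 4.50 ± 0.34 in wild-type seeds (adjusted p = 8.54e-09), or 14.9-fold and 23.2-fold as ratios of mean RPKM. By mean RPKM, GRP7 stood above 99.9% of loci in both stratified groups, against 97.9% in dry mutant seeds and 97.6% in dry wild-type seeds.

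GRP8 started higher and moved less. Its level was 401, 352 and 204 RPKM in stratified mutant seeds, against 194, 143 and 193 RPKM in dry mutant seeds. Stratified wild-type seeds had 362, 362 and 312 RPKM, against 210, 218 and 202 RPKM in dry wild-type seeds. All stratified libraries lay above the dry libraries of their genotype, and the lowest, mutant stratified library 3, was the one with the most ribosomal RNA. The limma estimate was 0.81 ± 0.33 in mutant seeds (adjusted p = 0.0421) and 0.71 ± 0.33 in wild-type seeds (adjusted p = 0.0612), close to the medians of all tested loci. Beyond the medians of all loci GRP8 was higher by 0.30 in mutant seeds and 0.07 in wild-type seeds. The call in mutant seeds was lost with median centring (0.33, adjusted p = 0.0968), trimmed-mean scaling (0.22, 0.271), quantile normalization (0.15, 0.356) and in a fit of the mutant groups alone (0.81, 0.123), and on leaving out any library except mutant stratified 3 or wild-type stratified 3 (0.61 to 0.88, adjusted p = 0.0524 to 0.168), where the adjusted p over all alternatives ran between 6.17e-05 and 0.356. In wild-type seeds GRP8 passed the threshold in a fit of those groups alone (adjusted p = 0.00955), with ribosomal RNA left out (0.78, 0.00734), without mutant stratified library 2 (0.0481) or 3 (0.00685), and was at -0.10 under trimmed-mean scaling and -0.24 under quantile normalization.

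The ratio of GRP7 to GRP8 within a library is free of scaling between libraries, and it turned over. GRP7 was at 3.14, 2.58 and 2.70 times GRP8 in stratified mutant seeds, against 0.348, 0.359 and 0.331 times in dry mutant seeds. In stratified wild-type seeds it was at 4.52, 4.34 and 3.84 times GRP8, against 0.297, 0.300 and 0.308 times in dry wild-type seeds. GRP8 was thus the more abundant transcript in every dry library and GRP7 in every stratified library. The change in the ratio, from geometric means, was 8.08-fold in mutant seeds and 14-fold in wild-type seeds, each with an exact 2-sided permutation p = 0.1, the smallest that 3 libraries against 3 can give. Between genotypes the stratified libraries did not overlap (geometric means 2.79 in mutant and 4.22 in wild-type seeds), and neither did the dry libraries (0.346 in mutant and 0.302 in wild-type seeds), again with exact permutation p = 0.1 each. How often the ratio of other pairs of loci separates the genotypes was not examined. Of single tested loci 5.06% did not overlap between genotypes in stratified seeds and 26.2% in dry seeds.

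The 250 bases before the annotated start of both genes carry the evening element, AAAATATCT, a clock-related element that 2.4% of the 27443 promoter windows of the same length hold on either strand. GRP7 has 3 copies and 1 ABRE core, ACGTG, which 22.9% of windows hold, and GRP8 has 1 copy of the evening element. The windows are printed because the pair shares this element while differing in response, with matches in capitals, read from the RefSeq genome TAIR10.1 on the strand of the gene.
GRP7, chr2:9266558-9266807, minus strand: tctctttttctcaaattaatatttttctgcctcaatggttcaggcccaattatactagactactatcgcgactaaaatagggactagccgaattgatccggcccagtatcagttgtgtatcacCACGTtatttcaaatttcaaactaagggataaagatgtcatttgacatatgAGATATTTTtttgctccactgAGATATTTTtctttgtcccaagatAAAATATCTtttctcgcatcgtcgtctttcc
GRP8, chr4:18275217-18275466, minus strand: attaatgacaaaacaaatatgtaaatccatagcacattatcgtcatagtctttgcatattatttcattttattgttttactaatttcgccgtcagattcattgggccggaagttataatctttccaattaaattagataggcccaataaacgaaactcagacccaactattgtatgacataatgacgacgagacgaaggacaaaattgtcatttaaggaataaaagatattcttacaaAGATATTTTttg

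**Figure D2:**
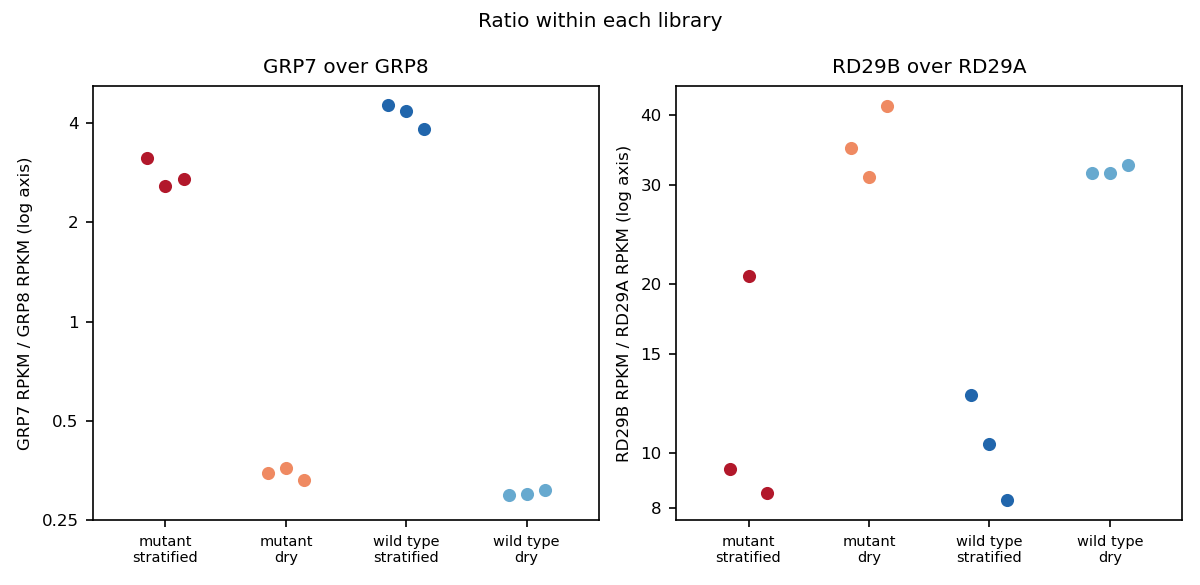
The ratio of RPKM within each library, on logarithmic axes, for GRP7 over GRP8 and for RD29B over RD29A, with 1 point a library. GRP7 over GRP8 lies between 2.58 and 4.52 in the stratified libraries and between 0.297 and 0.359 in the dry ones, and RD29B over RD29A lies between 8.25 and 20.7 in the stratified libraries and between 31.0 and 41.6 in the dry ones.

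RD29A and RD29B, hydrophilic proteins first found in drying plants, fell in both genotypes, RD29B by more on the log2 scale. The genes lie on the plus strand of chromosome 5, RD29B at 21237021 to 21239531 with 5 exon blocks and RD29A at 21240717 to 21243644 with 4, separated by 1185 bases with no other locus between them. Dry seeds held far more RD29B than RD29A. RD29B was at 43.7, 120 and 23.4 RPKM in stratified mutant seeds, against 324, 227 and 303 RPKM in dry mutant seeds. Stratified wild-type seeds had 33.8, 21.7 and 44.3 RPKM, against 337, 309 and 311 RPKM in dry wild-type seeds. No stratified library reached the lowest dry library, and mutant stratified library 2 stood above the other 5 stratified libraries. RD29B fell by 2.47 ± 0.44 on the log2 scale in mutant seeds (limma, adjusted p = 1.39e-04) and by 3.28 ± 0.44 in wild-type seeds (adjusted p = 4.58e-06), so that dry seeds held 4.57 times the mean level of stratified seeds in the mutant and 9.59 times in the wild type. Without mutant stratified library 2 RD29B was at -3.10 in mutant seeds and dry seeds held 8.48 times the stratified mean, and without the libraries over 10% ribosomal RNA, which leaves that library alone in its group, RD29B was at -1.38.

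RD29A, the classical reporter of cold and drought, was low throughout. Its level was 4.65, 5.79 and 2.76 RPKM in stratified mutant seeds, against 9.26, 7.32 and 7.28 RPKM in dry mutant seeds. Wild-type seeds had 2.66, 2.09 and 5.37 RPKM after stratification, against 10.7, 9.76 and 9.53 RPKM when dry. The groups did not overlap in either genotype. RD29A fell by 0.76 ± 0.29 in mutant seeds (limma, adjusted p = 0.0326) and by 1.40 ± 0.29 in wild-type seeds (adjusted p = 4.13e-04). The call in mutant seeds was lost with no filter (-0.76, adjusted p = 0.0603), in a fit of the mutant groups alone (-0.76, 0.0587), without the libraries over 10% ribosomal RNA (-0.44, 0.0547), without mutant stratified library 1 or 3 (-0.82, 0.0585 and -0.52, 0.105) and without mutant dry library 1, 2 or 3 (-0.66, 0.117, -0.81, 0.0582 and -0.82, 0.0595), where the range over all alternatives was 5.51e-04 to 0.117.

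RD29B stood at 9.39, 20.7 and 8.50 times RD29A in stratified mutant seeds, against 35.0, 31.0 and 41.6 times in dry mutant seeds. In wild-type seeds it stood at 12.7, 10.4 and 8.25 times after stratification, against 31.6, 31.6 and 32.6 times when dry. The ratio in dry seeds was 3.02 times that in stratified seeds in the mutant and 3.11 times in the wild type (geometric means, exact permutation p = 0.1 each), and it overlapped between genotypes in both states. Embryo storage genes, 8 markers summed, moved in the same direction: they came to 20731 to 39125.5 RPKM in stratified mutant seeds, against 91663.6 to 127182 RPKM in dry mutant seeds, and to 24870.8, 22487 and 72053.5 RPKM in stratified wild-type seeds, with library 3 apart, against 108302 to 113347 RPKM in dry wild-type seeds. The 1 endosperm marker moved likewise, at 447 to 695 RPKM in stratified and 1681 to 2367 RPKM in dry mutant seeds, and at 314 to 1272 RPKM in stratified and 1856 to 2743 RPKM in dry wild-type seeds. The 3 markers of green tissue together moved the other way, at 46.7 to 98.8 RPKM in stratified and 9.24 to 12.6 RPKM in dry mutant seeds, and at 242, 380 and 81.3 RPKM in stratified and 18.6 to 19.4 RPKM in dry wild-type seeds, with 1 of the 3 at 0 in the dry groups. The part of these markers in the changes of the 10 genes was not tested. In whole seeds, fewer cells of a type and less RNA per cell cannot be told apart.

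The 250-base windows before the annotated starts of the pair differ in the matches they hold, and are shown for that reason. The window of RD29A has 3 copies of the CRT/DRE core, CCGAC, which 12% of all windows hold, and no ABRE core. That of RD29B has 1 copy of the CRT/DRE core and 4 of the ABRE core. Bases after the annotated start or further upstream were not searched, so either promoter may hold more copies of these cores than its window. Capitals mark these matches on either strand, and a match is a description of the letters only.
RD29A, chr5:21240467-21240716, plus strand: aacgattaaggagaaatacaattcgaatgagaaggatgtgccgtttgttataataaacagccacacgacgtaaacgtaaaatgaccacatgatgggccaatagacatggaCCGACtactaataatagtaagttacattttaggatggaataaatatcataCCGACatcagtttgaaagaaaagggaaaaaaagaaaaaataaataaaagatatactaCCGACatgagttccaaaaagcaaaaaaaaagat
RD29B, chr5:21236771-21237020, plus strand: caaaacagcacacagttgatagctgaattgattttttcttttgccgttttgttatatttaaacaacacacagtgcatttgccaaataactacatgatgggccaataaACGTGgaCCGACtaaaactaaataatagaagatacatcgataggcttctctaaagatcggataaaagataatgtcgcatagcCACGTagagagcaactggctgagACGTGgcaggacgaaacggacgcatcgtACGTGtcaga

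**Figure D3:**
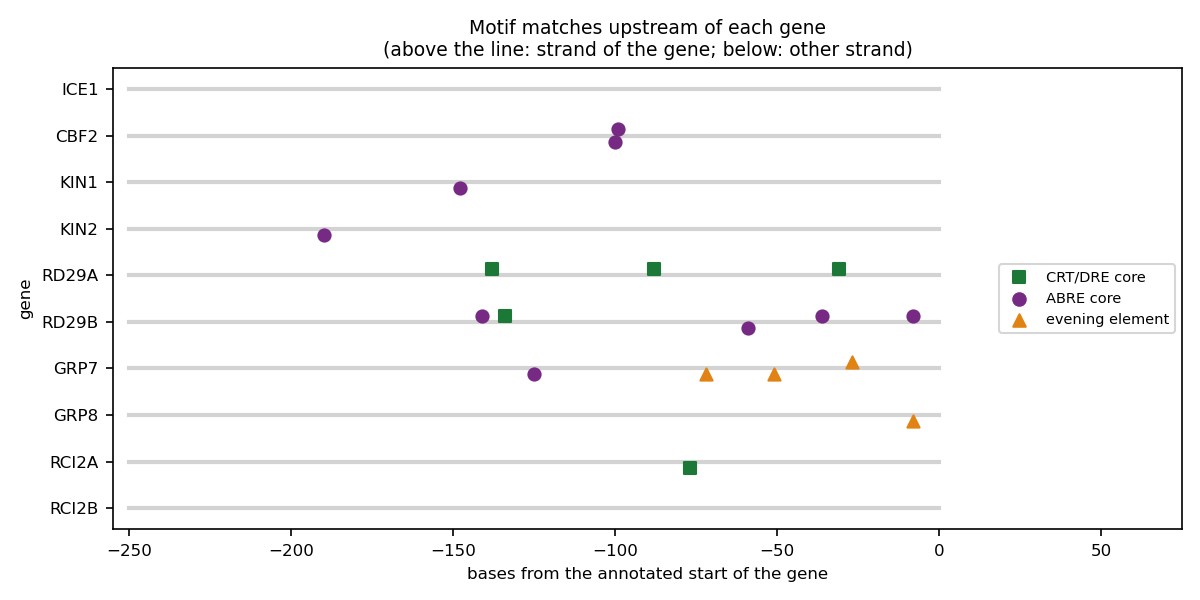
Positions of the matches in the 250 bases before the annotated start of each of the 10 genes, in bases from the start, with 1 mark a match and a colour for each motif. RD29A, RD29B and RCI2A hold a CRT/DRE core, 5 genes hold an ABRE core, GRP7 and GRP8 hold the evening element, and ICE1 and RCI2B hold none of the 3.

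KIN1 and KIN2 encode small hydrophilic proteins that accumulate in cold or ABA-treated plants, and in these seeds both were rare. They are neighbours on the plus strand of chromosome 5, KIN1 at 5209717 to 5210826 and KIN2 at 5211719 to 5212743, with 3 exon blocks each, 892 bases apart and with no locus between. Their exons share 1 of the 50-base windows, so few reads could belong to either. KIN2 was at 0.234, 0.427 and 0.242 RPKM in stratified mutant seeds, against 0.0751, 0 and 0.0714 RPKM in dry mutant seeds. Stratified wild-type seeds had 2.73, 1.99 and 1.07 RPKM, against 0, 0.0591 and 0 RPKM in dry wild-type seeds. These values stood for 4, 7 and 4 reads in stratified mutant seeds, 1, 0 and 1 in dry mutant seeds, 47, 32 and 18 in stratified wild-type seeds and 0, 1 and 0 in dry wild-type seeds. All 3 stratified wild-type libraries lay above the other 9.

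On the log2(RPKM + 1) scale, which understates the change of a gene this low, KIN2 was at 1.48 ± 0.22 after stratification in wild-type seeds. A fit with no filter, in which its inclusion does not depend on that group, gave 1.48 ± 0.17 (limma, adjusted p = 4.46e-05). The other alternatives kept the filter, so their range of adjusted p (1.18e-10 to 0.00255) is a description. In mutant seeds the estimate was 0.31 ± 0.22 (adjusted p = 0.226), and it passed the threshold on log2(RPKM + 0.1) (1.44, adjusted p = 0.0241, with 0.0241 to 0.524 over all alternatives), and it turned to -0.16 under both median centring and quantile normalization. By reads summed over the group, in RPM, the stratified wild-type seeds held 91.6 times the dry ones, with an exact interval of 16.1 to 3660 that covers counting error only. In mutant seeds the same ratio was 6.15, with an interval of 1.43 to 55.4.

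KIN1 had 15, 4 and 4 reads in stratified mutant seeds and 1 in each dry mutant library, against 8, 17 and 5 reads in stratified wild-type seeds and 0 in each dry wild-type library. Its level stayed under 1 RPKM in all 12 libraries. In the fit with no filter KIN1 was at 0.61 ± 0.16 after stratification in wild-type seeds (limma, adjusted p = 0.0096), where 51.4% of all loci were called. In mutant seeds that fit gave 0.38 ± 0.16 (adjusted p = 0.0947), where 37.3% were called. The stratified and dry libraries did not overlap in either genotype (exact permutation p = 0.1 each). Mutant seeds showed 6.28 times the summed RPM after stratification, with an interval of 1.90 to 32.7. Wild-type seeds showed at least 9.44-fold more, reckoned against a floor of 3 reads over the 3 dry libraries. Each of the windows before these genes holds 1 ABRE core and no CRT/DRE core, and they are given to set beside those of the RD29 genes.
KIN1, chr5:5209467-5209716, plus strand: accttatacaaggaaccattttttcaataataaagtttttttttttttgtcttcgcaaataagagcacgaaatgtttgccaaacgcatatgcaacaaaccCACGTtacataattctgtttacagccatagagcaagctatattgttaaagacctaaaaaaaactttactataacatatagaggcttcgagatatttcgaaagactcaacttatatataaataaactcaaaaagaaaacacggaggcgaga
KIN2, chr5:5211469-5211718, plus strand: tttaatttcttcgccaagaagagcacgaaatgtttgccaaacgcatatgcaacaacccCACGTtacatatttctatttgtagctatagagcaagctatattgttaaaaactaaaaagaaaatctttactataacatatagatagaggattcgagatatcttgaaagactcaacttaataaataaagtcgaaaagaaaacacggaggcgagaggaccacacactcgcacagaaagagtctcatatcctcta

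CBF2, one of the transcription factors that give this regulon its name, was barely detectable. It lies on chromosome 4 (13015250 to 13016235, minus strand) in a single exon block, next to its close relatives CBF3 and CBF1, with which 3.9% of its 50-base windows are shared. CBF2 had 6, 1 and 3 reads in stratified mutant seeds and 0 in every dry mutant library. Wild-type seeds had 0, 30 and 4 reads after stratification and 0 in every dry library. A single library, wild-type stratified 2, held 30 of the 34 wild-type reads at 1.42 RPKM, and wild-type stratified library 1 had none. Stratified seeds exceeded the floor of 3 reads over the dry group at least 2.73-fold in the mutant (exact permutation p = 0.1) and at least 10.7-fold in the wild type (exact permutation p = 0.4). CBF1 had 1 read in all, in wild-type stratified library 3, and CBF3 had 1, in mutant dry library 1.

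RCI2B, on chromosome 3 at 1757440 to 1758807, had 0 reads in all 6 mutant libraries, 1, 15 and 0 reads in stratified wild-type seeds and 0 in dry wild-type seeds. Wild-type stratified library 2 thus held nearly all its reads, as it did those of CBF2. The stratified wild-type group exceeded the floor at least 5.04-fold (exact permutation p = 0.4). A group of 3 libraries with 0 reads allows up to 0.0450 RPM in stratified mutant seeds, 0.0549 in dry mutant seeds and 0.0475 in dry wild-type seeds.

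RCI2A, 515 bases from RCI2B on the same strand (1755497 to 1756924), was well expressed and not called in either genotype. Stratified mutant seeds had 27.7, 27.0 and 14.7 RPKM, against 32.7, 24.6 and 38.6 RPKM in dry mutant seeds. Stratified wild-type seeds had 14.4, 20.6 and 40.01 RPKM, against 27.8, 32.2 and 27.4 RPKM in dry wild-type seeds. The groups overlapped, and wild-type stratified library 3 had the highest value of all 12. The limma estimates were -0.48 ± 0.34 (adjusted p = 0.235) in mutant seeds and -0.33 ± 0.34 (adjusted p = 0.398) in wild-type seeds. RCI2A passed as lower under median centring, trimmed-mean scaling and quantile normalization, at -0.95, -1.05 and -0.90 in mutant seeds and -0.91, -1.11 and -0.82 in wild-type seeds (adjusted p = 0.0107 to 0.0323), and also in wild-type seeds without wild-type stratified library 3 (-0.72, adjusted p = 0.0442) and without the libraries over 10% ribosomal RNA (-0.72, 0.00109). With the stratified libraries over 10% alone, an alternative chosen after seeing the data, it was at 0.45 in wild-type seeds and passed as lower in mutant seeds (-0.61, 0.0482), with a range over alternatives of 0.0158 to 0.619 in mutant and 0.00109 to 0.976 in wild-type seeds. The span of RCI2A overlaps the spans of AT3G05870 and AT3G01795 on the other strand, and overlap of their exons was not examined. Whether reads were counted by strand is not given in the sources used here.

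ICE1, the transcription factor upstream of the CBF genes, was present in dry and stratified seeds alike. It lies on chromosome 3 (9832667 to 9835279, minus strand) in 2 exon blocks. Stratified mutant seeds had 35.5, 35.6 and 17.7 RPKM, against 21.4, 17.9 and 22.4 RPKM in dry mutant seeds. Stratified wild-type seeds had 29.2, 34.4 and 30.9 RPKM, against 24.3, 22.7 and 22.5 RPKM in dry wild-type seeds. The groups overlapped in mutant seeds, through mutant stratified library 3, and did not overlap in wild-type seeds. Estimates of 0.45 ± 0.28 (limma, adjusted p = 0.175) in mutant seeds and 0.42 ± 0.28 (adjusted p = 0.182) in wild-type seeds lay below the medians of all tested loci. Its call moved both ways: ICE1 passed as higher without mutant stratified library 3 (0.77 in mutant seeds, adjusted p = 0.00145, and 0.42 in wild-type seeds, adjusted p = 0.0183) and with ribosomal RNA left out (0.61, 0.0119 and 0.50, 0.0308), and as lower in wild-type seeds under trimmed-mean scaling (-0.36, adjusted p = 0.0247). Over all alternatives its adjusted p ran between 0.00124 and 0.857 in mutant seeds and between 0.00232 and 0.575 in wild-type seeds.

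**Figure D4:**
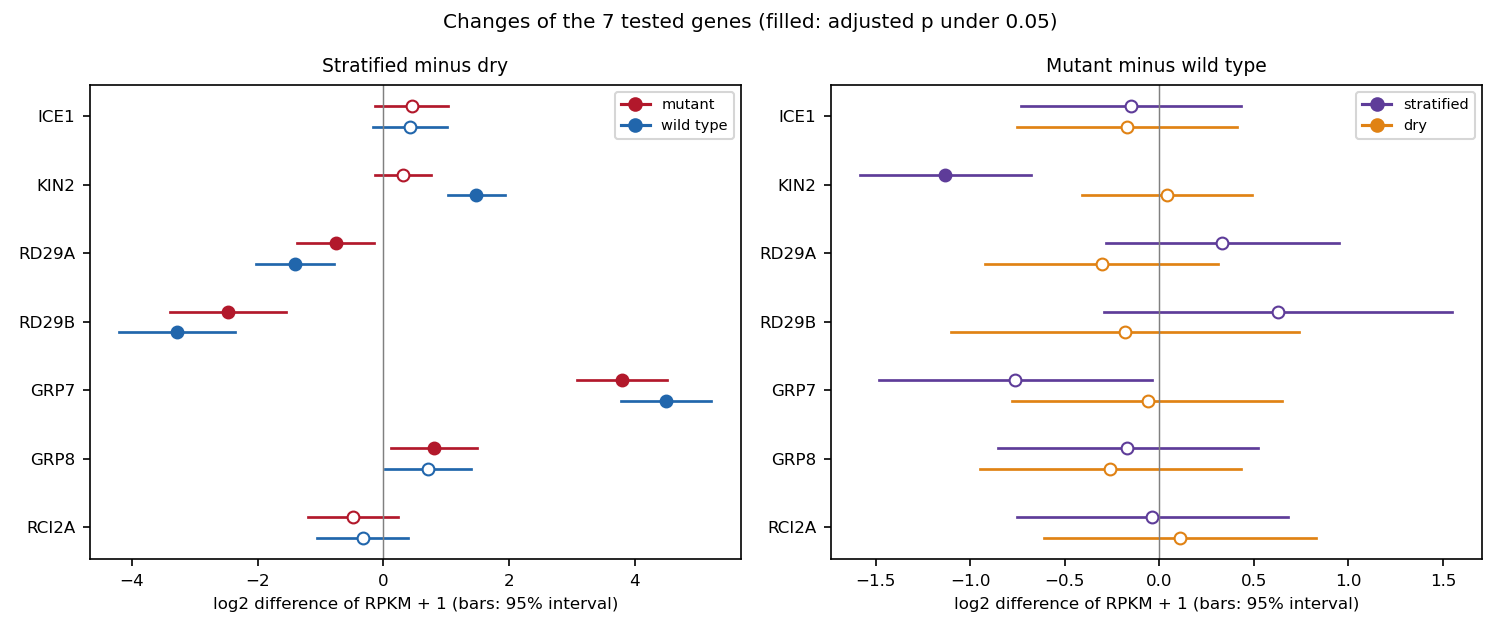
Log2 changes of the 7 tested genes on the log2(RPKM + 1) scale with 95% confidence intervals from the limma fit, for stratified minus dry seeds in each genotype and for mutant minus wild type in each state. GRP7 lies at 3.80 and 4.50 after stratification and RD29B at -2.47 and -3.28, while in the genotype comparisons KIN2, which was tested only because of its level in stratified wild-type seeds, lies at -1.13 in stratified seeds.

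The order of the genes by level thus differed between dry and stratified seeds. In dry seeds of both genotypes it ran RD29B, GRP8, GRP7, RCI2A, ICE1 and RD29A, and in neither genotype did the libraries of neighbours in this order overlap. After stratification GRP7 and GRP8 came first in both genotypes without overlap, followed by RD29B, ICE1 and RCI2A, whose neighbouring ranges overlapped. RD29A came after these. The 4 remaining genes lay below it, although in stratified wild-type seeds KIN2 (1.93 ± 0.832 RPKM, SD, n = 3) overlapped RD29A (3.37 ± 1.75 RPKM, SD, n = 3).

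Between genotypes, the dry seeds gave no call among the 7 genes, where 0.0462% of tested loci were called. None of the 7 had an unadjusted p under 0.05 in limma either, where 227 of 15145 tested loci had. The estimates lay between -0.30 ± 0.29 for RD29A and 0.11 ± 0.34 for RCI2A. GRP7 averaged 60.9 ± 8.41 RPKM in dry mutant seeds and 63.3 ± 1.70 RPKM in dry wild-type seeds (SD, n = 3 each), a log2 difference of -0.06 with a 95% interval of -0.78 to 0.65. RD29B averaged 285 ± 51.3 RPKM in dry mutant seeds and 319 ± 16.0 RPKM in dry wild-type seeds, at -0.18 with an interval of -1.10 to 0.74. For ICE1, RD29A and GRP8 all dry mutant libraries lay below all dry wild-type libraries, and 26.2% of tested loci showed no overlap in one direction or the other.

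In stratified seeds none of the 6 genes that passed the filter without depending on stratified wild-type seeds was called between genotypes, where 0.211% of tested loci were called, 0.172% as lower, and 5.06% did not overlap. KIN2 averaged 0.301 ± 0.110 RPKM in stratified mutant seeds and 1.93 ± 0.832 RPKM in stratified wild-type seeds (SD, n = 3 each), a log2 difference of -1.13 ± 0.22 that is past the threshold (limma, adjusted p = 0.0319) and is given as a description. With no filter, the difference was -1.13 ± 0.17 (adjusted p = 0.0187). The 15 reads of the mutant group against 97 of the wild-type group gave a ratio of 0.155 in RPM, with an interval of 0.0836 to 0.269, and the libraries did not overlap. The difference missed the threshold on log2(RPKM + 0.1) (-2.28, adjusted p = 0.123), under median centring (-0.95, 0.0547) and on leaving out any library except wild-type stratified 3 (-0.94 to -1.20, adjusted p = 0.0564 to 0.312), and was at -1.23 without the libraries over 10% ribosomal RNA and at -0.74 with those alone, with a range of 5.94e-07 to 0.312 over all alternatives. The difference between the genotypes in the response of KIN2 to stratification was -1.17 ± 0.30 with an unadjusted p of 0.00118 and did not pass (adjusted p = 0.662). This difference passed without wild-type stratified library 3 (-1.40, limma, adjusted p = 2.1e-04), with a range of 2.1e-04 to 0.999 over all alternatives. Without the libraries over 10% ribosomal RNA, which leaves 1 mutant stratified library, it was at -1.30. These fits kept the filter, so their values are a description. With no filter it was at -1.17 ± 0.24 and did not pass (limma, adjusted p = 0.25).

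For KIN1, the neighbour of KIN2, the 23 reads in stratified mutant seeds and 30 in stratified wild-type seeds gave a ratio of 0.769, with an interval of 0.426 to 1.37 (exact permutation p = 0.5). CBF2, with 10 reads in stratified mutant seeds and 34 in stratified wild-type seeds, gave 0.295 (0.130 to 0.611 by counting error), with overlapping libraries and an exact permutation p = 0.8. GRP7 averaged 905 ± 352 RPKM in stratified mutant seeds and 1469 ± 236 RPKM in stratified wild-type seeds, at -0.76 ± 0.34 (limma, adjusted p = 0.244). RD29B averaged 62.3 ± 50.8 RPKM in stratified mutant seeds and 33.3 ± 11.3 RPKM in stratified wild-type seeds, at 0.63 ± 0.44 (adjusted p = 0.45).

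Values between genotypes in stratified seeds depended on the libraries rich in ribosomal RNA. Without them, which leaves 1 mutant and 2 wild-type stratified libraries and takes the lone library to vary like the other groups, RD29B was higher in the mutant by 2.10 (adjusted p = 5.92e-05), RD29A by 1.01 (0.00213) and RCI2A by 0.62 (0.0313), and GRP7 was at -0.82 (3.79e-04), where 42.4% of all tested loci were called. Among the stratified libraries over 10% ribosomal RNA alone, an alternative chosen after seeing the data, with 2 mutant libraries and 1 wild-type library, the same genes were at -0.45 for RD29B, -0.47 for RD29A, -0.95 for RCI2A and -0.53 for GRP7. The estimates for RD29A, RD29B and RCI2A thus changed sign between the sets of libraries, and that for GRP7 did not. With every library kept and only the ribosomal RNA left out, RD29B was at 0.76, RD29A at 0.44, RCI2A at 0.09 and GRP7 at -0.62. The main fit gave 0.63, 0.33, -0.04 and -0.76 for these genes. Over all alternatives the adjusted p ran between 5.92e-05 and 0.998 for RD29B, between 0.00213 and 0.998 for RD29A, between 0.0313 and 1 for RCI2A and between 3.79e-04 and 0.998 for GRP7. No difference between the genotypes in the response to stratification was called among the 7 genes with all libraries, where 0.0264% of tested loci were. At an unadjusted p under 0.05 in limma there was 1 of the 7, KIN2, and 1058 of all 15145 tested loci. Without the libraries over 10% ribosomal RNA 4 were called: KIN2, RD29A (1.27, adjusted p = 0.00295), RD29B (2.13, 3.16e-04) and GRP7 (-0.87, 0.00139), where 35.2% of all tested loci were called.

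The wider pathway was read in 4 lists of 64 further genes, of which 47 passed the filter. OST1, P5CS1, COR47, AT4G30650 and AT2G24040, named below, passed it only with stratified libraries counted. Their changes after stratification are therefore a description, and those called were also called with no filter. Of 27 genes in the list of CBF regulators 22 were tested. This list also holds CBF1, CBF3 and CBF4 themselves and further factors such as DREB2A and LOS2, so its counts are not of regulators alone. In mutant seeds 3 rose and 5 fell after stratification, with a median log2 change of -0.01, and in wild-type seeds 5 rose and 9 fell, with a median of -0.27, where the medians of all tested loci were 0.50 and 0.64. The shares called, 8 of 22 and 14 of 22, stand beside 58.6% and 68.6% of all tested loci. OST1, the ABA-activated kinase that stabilises ICE1, averaged 9.34 RPKM in stratified and 0.861 RPKM in dry mutant seeds, a rise of 2.47 ± 0.26 (limma, adjusted p = 8e-07), and rose by 1.81 ± 0.26 in wild-type seeds (1.22e-05). LOS2, an enolase that represses the gene of the zinc finger protein ZAT10, rose by 2.43 ± 0.31 in mutant seeds (5.22e-06) and 2.07 ± 0.31 in wild-type seeds (1.59e-05). ZAT10 itself fell by 1.42 ± 0.34 in mutant seeds (0.00198) and fell by 2.45 ± 0.34 in wild-type seeds (7.84e-06). ICE2, the paralogue of ICE1, rose by 1.44 ± 0.24 in mutant seeds (8.45e-05) and 1.47 ± 0.24 in wild-type seeds (4.12e-05). The kinase MPK3, which phosphorylates ICE1, fell by 1.04 ± 0.25 in mutant seeds (0.00197) and fell by 1.60 ± 0.25 in wild-type seeds (2.56e-05). DREB2A, a relative of the CBFs that acts in drought and heat, fell by 1.88 ± 0.71 in mutant seeds (0.0298) and fell by 2.45 ± 0.71 in wild-type seeds (0.00534), but mutant stratified library 2, at 221 RPKM, lay above every dry mutant library. The call of DREB2A in mutant seeds was lost with no filter (0.112) and on leaving out mutant stratified library 1 or 3 or any mutant dry library (-1.22 to -1.99, 0.0503 to 0.212), and the estimate was -2.97 without library 2 and 0.17 without the libraries over 10% ribosomal RNA, with a range of 1.85e-20 to 0.843. ADA2B, a transcriptional adaptor, fell by 0.88 ± 0.25 in mutant seeds (0.00671). In wild-type seeds EIN3, a factor of ethylene signalling, fell by 1.43 ± 0.33 (8.85e-04) and the kinase MPK4 rose by 0.89 ± 0.26 (0.00649), a call lost under trimmed-mean scaling (0.17, 0.250). With the stratified libraries over 10% ribosomal RNA alone the calls of EIN3 (-0.73, 0.0971) and MPK4 (0.52, 0.153) were lost. CBF1, CBF3, CBF4, MYB15 and RAV1 were below the filter.

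Under the 3 other scalings the list of CBF regulators and further factors gave 3 higher and 12 lower in mutant seeds. In wild-type seeds it gave 3 or 4 higher and 14 to 17 lower. Of all tested loci those scalings put 33.8% to 35.0% lower in mutant seeds and 36.7% to 39.6% in wild-type seeds. The higher shares were 32.4% to 36.9% and 36.7% to 38.8%. Of 24 other cold-regulated genes 13 were tested. In mutant seeds 2 rose and 5 fell, with a median of -0.26, and in wild-type seeds 3 rose and 6 fell, with a median of -0.27. Of all tested loci 43.4% were higher and 15.2% lower in mutant seeds, and 49.8% and 18.9% in wild-type seeds. RAB18, a dehydrin that accumulates under ABA, averaged 2148 RPKM in stratified and 25560.5 RPKM in dry mutant seeds, and 1370 RPKM in stratified and 32781.6 RPKM in dry wild-type seeds. RAB18 fell by 3.72 ± 0.67 in mutant seeds (limma, adjusted p = 1.64e-04) and fell by 4.98 ± 0.67 in wild-type seeds (4.99e-06), with the call in mutant seeds lost under quantile normalization (-1.66, 0.153). AT4G33980, described as a match to the cold-regulated gene COR27, fell by 2.13 ± 0.37 in mutant seeds (1.22e-04) and fell by 3.14 ± 0.37 in wild-type seeds (1.17e-06). ERD7 fell by 1.78 ± 0.36 in mutant seeds (4.16e-04) and fell by 2.84 ± 0.36 in wild-type seeds (2.33e-06). The alcohol dehydrogenase ADH1 fell by 1.68 ± 0.45 in mutant seeds (0.00397) and fell by 2.99 ± 0.45 in wild-type seeds (1.54e-05). P5CS1, which makes proline, rose by 1.21 ± 0.28 in mutant seeds (0.00122) and 0.96 ± 0.28 in wild-type seeds (0.00528). COR413PM1, a membrane protein, rose by 0.93 ± 0.32 in mutant seeds (0.0185) and 0.76 ± 0.32 in wild-type seeds (0.0430). The call of COR413PM1 was lost in 7 of 22 alternatives in mutant seeds and 11 of 22 in wild-type seeds, among them the 3 other scalings, no filter and, in wild-type seeds, leaving out stratified library 3 (0.38, 0.197). The call of P5CS1 in wild-type seeds was lost under median centring, quantile normalization and with the stratified libraries over 10% ribosomal RNA alone (0.35, 0.174). COR47, another dehydrin, rose by 2.67 ± 0.49 in wild-type seeds (1.19e-04), where it averaged 8.65 RPKM after stratification (8.94, 15.8 and 1.17 by library) and 0.120 RPKM when dry, and was at 1.05 ± 0.49 in mutant seeds (0.0740), with 1.23, 2.11 and 0.371 RPKM after stratification. The rise in wild-type seeds was 2.05 to 3.53 on leaving out 1 library and 0.95 with the stratified libraries over 10% ribosomal RNA alone. The 11 genes below the filter were COR15A, COR15B, ERD10, COR413IM1, COR413IM2, GOLS3, LTP3, LTP4, RCI3, BAM3 and ESK1, which include the chloroplast proteins COR15A and COR15B by which CBF activity is often read.

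RCI2A and RCI2B have 5 relatives in the table, of which 4 were tested, and 3 rose and 1 fell in both genotypes under every scaling. The median log2 change was 2.35 in mutant and 2.99 in wild-type seeds, and all 4 were called where 58.6% and 68.6% of all tested loci were. Under the other scalings 66.7% to 71.9% of all tested loci were called in mutant seeds and 74.7% to 77.9% in wild-type seeds. AT4G30650 and AT2G24040 passed the filter only with stratified libraries counted, so this count of 4 is a description. AT4G30650, annotated as a membrane protein of the UPF0057 family, averaged 48.5 RPKM in stratified and 0.258 RPKM in dry mutant seeds, and 62.6 RPKM in stratified and 0.171 RPKM in dry wild-type seeds, a rise of 5.15 ± 0.40 in mutant seeds (limma, adjusted p = 2.42e-08) and 5.60 ± 0.40 in wild-type seeds (4.67e-09). AT4G30660 rose by 3.52 ± 0.27 in mutant seeds (2.7e-08) and 4.14 ± 0.27 in wild-type seeds (2.39e-09). AT2G24040 rose by 1.18 ± 0.27 in mutant seeds (0.00139) and 1.84 ± 0.27 in wild-type seeds (1.47e-05). AT2G38905 fell by 1.88 ± 0.40 in mutant seeds (7.29e-04) and fell by 2.27 ± 0.40 in wild-type seeds (8.27e-05). RCI2A was not called and RCI2B was not tested, and AT1G57550 was below the filter.

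All 8 genes for cold shock domain proteins and further glycine-rich RNA-binding proteins were tested, and 5 rose and 1 fell in both genotypes, with medians of 1.50 in mutant and 1.92 in wild-type seeds. Of all tested loci 43.4% and 49.8% were higher and 15.2% and 18.9% lower. With the other scalings 5 were higher and 2 or 3 lower. Of all tested loci 32.4% to 36.9% were then higher in mutant seeds and 36.7% to 38.8% in wild-type seeds. The lower shares were 33.8% to 35.0% and 36.7% to 39.6%. GR-RBP4 averaged 167 RPKM in stratified and 5.32 RPKM in dry mutant seeds, and 339 RPKM in stratified and 6.04 RPKM in dry wild-type seeds, a rise of 4.70 ± 0.34 in mutant seeds (limma, adjusted p = 1.29e-08) and 5.53 ± 0.34 in wild-type seeds (1.26e-09). GR-RBP3 rose by 3.56 ± 0.40 in mutant seeds (1.25e-06) and 4.23 ± 0.40 in wild-type seeds (9.14e-08). GR-RBP2, a mitochondrial RNA-binding protein, rose by 1.54 ± 0.35 in mutant seeds (0.00129) and 2.08 ± 0.35 in wild-type seeds (5.81e-05). CSP1, a cold shock domain protein that binds RNA, rose by 2.47 ± 0.28 in mutant seeds (1.7e-06) and 2.25 ± 0.28 in wild-type seeds (2.44e-06). CSP4 fell by 0.85 ± 0.32 in mutant seeds (0.0313) and fell by 1.28 ± 0.32 in wild-type seeds (0.00200), a call lost in mutant seeds with no filter, in the mutant groups alone, without the libraries over 10% ribosomal RNA (-0.40, 0.117) and without mutant stratified library 3 (-0.48, 0.105) or mutant dry library 1 (0.102) or 3 (0.0815).

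Between genotypes none of the 47 tested list genes was called by limma in dry seeds or in stratified seeds, and no interaction was called. At an unadjusted p under 0.05 there was 1 in dry seeds (RCF1), 11 in stratified seeds and 3 for the interaction (EIN3, ZAT10 and COR47), named after their values were seen. Of all 15145 tested loci 227, 2799 and 1058 were under the same limit in these comparisons. Without wild-type stratified library 3, 14 list genes were called between genotypes in stratified seeds and 8 for the interaction, where 29.7% and 15.5% of all tested loci were called.

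**Figure D5:**
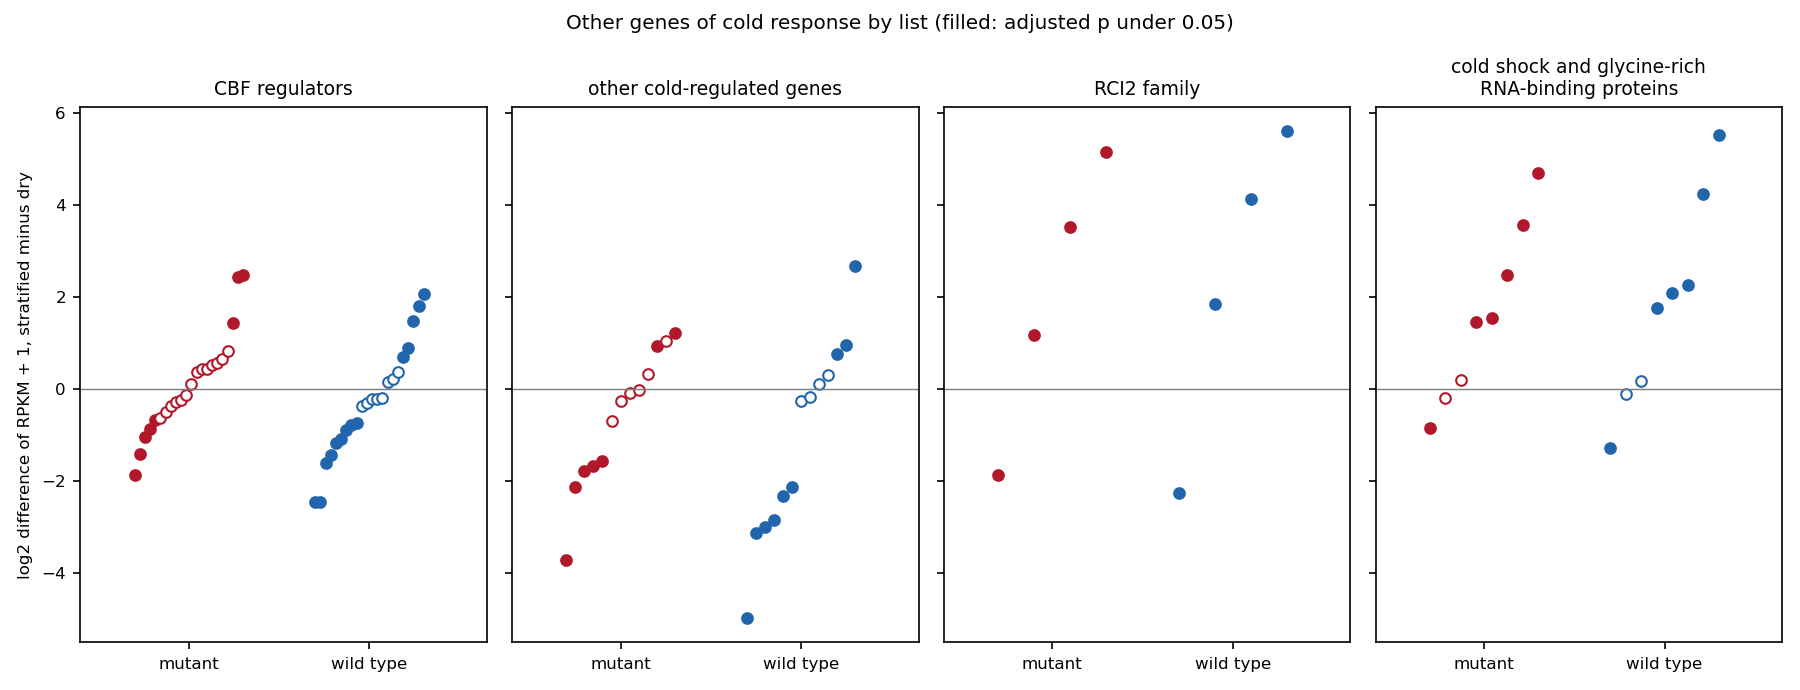
Log2 changes after stratification on the log2(RPKM + 1) scale for the tested genes of the 4 lists, in mutant and wild-type seeds, with 1 point a gene and filled points for those called. The RCI2 relatives and the RNA-binding proteins lie mostly above 0, with medians between 1.50 and 2.99. The list of CBF regulators and further factors and the other cold-regulated genes lie on both sides of 0, with medians between -0.27 and -0.01.

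Across the 12 libraries, which fall into 4 groups and are not independent, the profile of each tested gene was set beside those of the other 15144 tested loci by Pearson's r of log2(RPKM + 1), as a description. The profiles most like that of GRP7 were of the ribosomal protein genes RPL27C and RPL35AD (r = 0.998 each), and those most like RD29B were of AT3G53040, a late embryogenesis abundant protein (0.997), and DTX24, a transporter (0.997). RD29A was nearest to CAT1 (0.9904) and AT2G28780 (0.9902), GRP8 to MORF1 (0.9903) and LCY1 (0.987), KIN2 to FLZ5 (0.991) and dVPE (0.985), ICE1 to RAD23D (0.978) and PP2A4 (0.977), and RCI2A to ISU1 (0.953) and ADF2 (0.952). Within pairs, RD29A and RD29B reached 0.95, with RD29B at place 451 among the loci most like RD29A. GRP7 and GRP8 reached 0.892, with GRP8 at place 5127 for GRP7, while ICE1 and GRP8 reached 0.936, with GRP8 at place 132 for ICE1.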

How the data were processed

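Seed RNA was prepared with Trizol, enriched for mRNA on oligo-dT beads and made into directional libraries (NEBNext Ultra II), per the labels' protocols. STAR, DESeq2 and the build TAIR10 are listed, without versions or roles, per the submitters' processing notes. The counter, the lengths and the strand setting were not given in the sources used here. Deposited by the authors were RPKM values of 32833 loci in 12 libraries. Reads per locus were recovered from the RPKM steps and TAIR10.1 exon lengths: 99.32% of 94891 values under 2 RPKM were whole within 0.05 reads, where 10.0% would be by chance. Denominators of 17752862 to 22987789 reads set the counting precision, and read intervals are exact at 95%.

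Values were fitted as log2(RPKM + 1) with limma 3.58.1 (R 4.3.3, mean-variance trend, 4 group means, 8 residual degrees of freedom, 2-sided), with Benjamini-Hochberg adjustment per contrast over 15145 loci. Fold changes on this scale understate changes of low genes. Simulated data for stratification in wild-type seeds held 15145 loci, of which 200 were changed. Of changes of 1 and 2 on the log2 scale 7% and 91% were recovered, with 2 and 15 false calls. Far more loci were called in the data (68.6% in wild-type seeds), and the adjustment depends on that share. These recoveries therefore do not give the sensitivity for stratification. Exact permutation tests used library values. Alternatives were another pseudocount (0.1), no filter, 3 scalings, a replicate block, the 2 groups alone, ribosomal RNA left out, libraries over 10% ribosomal RNA left out, and each library left out. Sequences are from RefSeq (TAIR10.1). The genes and lists were chosen with earlier results of these data known. All 10 genes are named in each contrast, with up to 4 called genes at each end per list, and the 2 loci most like each tested gene. Replicate libraries differed beyond sampling noise (chi-square per degree of freedom 3.07 to 453.14).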

Additional observations from a re-analysis of the deposited data

How the results depend on the processing

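Of the loci called after stratification, 74.0% were higher in mutant seeds and 72.5% in wild-type seeds, against 49.3% and 51.4% with median centring, 51.3% and 49.2% with trimmed-mean scaling and 48.1% and 49.2% with quantile normalization. Calls among the 7 genes after stratification were 2 in mutant seeds with the 2 groups alone, in place of 4, where 55.9% of all tested loci were called. Leaving out 1 library gave 2 to 4 in mutant and 4 to 6 in wild-type seeds, 22 to 31 and 30 to 33 list genes, and 7217 to 10062 and 9298 to 11396 loci. ICE1 turned to -0.36 in wild-type seeds with trimmed-mean scaling, DREB2A to 0.17 in mutant seeds and RCI2A to 0.62 between genotypes in stratified seeds without the libraries over 10% ribosomal RNA, RCI2A to 0.45 in wild-type seeds with those alone, and KIN2 to -0.16 in mutant seeds with median centring and quantile normalization; the cause was not tested.

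Between genotypes in dry seeds, loci called were 7, and 4 on log2(RPKM + 0.1), 27 with trimmed-mean scaling, 20 with quantile normalization, 30 with the 2 groups alone, 44 without the libraries over 10% ribosomal RNA, 84 with the stratified libraries over 10% alone, and 3 to 18 leaving out 1 library, the highest without wild-type stratified library 3. In stratified seeds, loci called were 32, and 18 on log2(RPKM + 0.1), 72 with no filter, 116 with median centring, 188 with trimmed-mean scaling, 313 with quantile normalization, 145 with the 2 groups alone, 6420 without the libraries over 10% ribosomal RNA, 128 with those alone, and 12 to 4505 leaving out 1 library, the highest again without that library. Of the 7 genes, 1 was past the threshold (KIN2), and 0 on log2(RPKM + 0.1) and with median centring, 5 without the libraries over 10% ribosomal RNA, and 0 to 1 leaving out 1 library. Of the list genes 0 were called, and 1 (COR47) with the 2 groups alone, 29 without the libraries over 10% ribosomal RNA, and 0 to 14 leaving out 1 library. For the interaction, 4 loci were called, and 0 on log2(RPKM + 0.1), 8 with no filter, 19 with trimmed-mean scaling, 7 with quantile normalization, 5325 without the libraries over 10% ribosomal RNA, 60 with those alone, and 2 to 2342 leaving out 1 library, the highest once more without it; the 7 genes gave 4 and the lists 23 without the libraries over 10% ribosomal RNA, and 0 to 1 and 0 to 8 leaving out 1 library. In each case the cause was not tested.

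Deviations from the group means correlated at -0.315 to 0.197 between same-numbered libraries over 18 pairs. The deviations of the 3 libraries of a group are not independent, so these values cannot exclude a pairing by replicate number. With the replicate block, 304 loci were called between genotypes in stratified seeds, 8 for the interaction and 1 list gene (COR47) in stratified seeds, and GRP8 in mutant seeds was at 0.81 (limma, adjusted p = 0.0704). Few reads limit what can be seen of CBF2, KIN1, KIN2 and RCI2B.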
